A study of Mus musculus with 8 samples.

Results

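Open chromatin at 4 genes of the nuclear lamina and envelope, Lmna, Lmnb1, Lbr and Sun2, was examined in ATAC-seq libraries of NIH3T3 cells, an immortalised mouse embryonic fibroblast line. The members were the peaks overlapping fixed windows on the mouse build mm9, which were chromosome 3 from 88260000 to 88330000 for Lmna, chromosome 18 from 56840000 to 56940000 for Lmnb1, chromosome 1 from 183720000 to 183800000 for Lbr and chromosome 15 from 79530000 to 79600000 for Sun2. Peaks of the 4 libraries that shared at least 1 bp were merged into regions, and 35 of the 45915 regions of the whole series lay in these windows. Of these, 20 were in the Lmna window, 4 in the Lmnb1 window, 2 in the Lbr window and 9 in the Sun2 window. Cells were kept for 24 h on G2 (2 libraries) or on G128 (2 libraries), names that the labels do not explain beyond a series title on hydrogels of polyvinyl alcohol and gelatin. All libraries came from the same line, in medium with newborn calf serum. The labels do not state whether replicates were grown as separate cultures, and p-values here therefore rest on a spread between libraries that may be technical.

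The nuclear lamina is a meshwork of lamin filaments under the inner nuclear membrane, which gives the nucleus its mechanical stiffness and tethers silent chromatin. Lmna encodes the A-type lamins, lamin A and lamin C, by alternative splicing, and Lmnb1 encodes the B-type lamin B1. Lbr encodes the lamin B receptor, a protein of the inner nuclear membrane that binds B-type lamins and heterochromatin and is also a sterol reductase. Sun2 encodes an inner membrane protein that joins outer membrane proteins called nesprins in the LINC complex, the link between the nucleus and the cytoskeleton through which adhesion forces reach the nucleus. In fibroblasts and other mesenchymal cells A-type lamins are abundant, and their level is known to follow the stiffness of the surroundings. Setting G2 against G128 asks whether open chromatin at these loci differs with the material on which fibroblasts adhere, the topic named in the series title.

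Promoter sequences from an annotation show the bases around listed start sites of some of these genes. Which start sites these cells use was not tested. RefSeq's table of promoters on GRCm38.p6 held 4 entries for 3 of the genes, 2 for Lmna and 1 each for Lbr and Sun2, and none was matched for Lmnb1. Each runs from 250 bases before to 50 bases after a transcription start, all on the minus strand. They are chr3:88503303-88503602 and chr3:88493263-88493562 for Lmna, chr1:181842352-181842651 for Lbr and chr15:79742487-79742786 for Sun2. Capitals mark matches on either strand to 3 motifs. They are CCAAT, known for binding the factor NF-Y, then the GC box of Sp1-type factors, spelled GGGCGG, and the AP-1 site, spelled TGANTCA.
Lmna promoter 1: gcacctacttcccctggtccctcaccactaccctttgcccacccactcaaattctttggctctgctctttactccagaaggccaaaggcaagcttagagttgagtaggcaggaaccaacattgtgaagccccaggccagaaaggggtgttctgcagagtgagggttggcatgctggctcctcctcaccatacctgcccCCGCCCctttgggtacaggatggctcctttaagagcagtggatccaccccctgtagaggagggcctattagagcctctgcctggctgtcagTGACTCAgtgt
Lmna promoter 2: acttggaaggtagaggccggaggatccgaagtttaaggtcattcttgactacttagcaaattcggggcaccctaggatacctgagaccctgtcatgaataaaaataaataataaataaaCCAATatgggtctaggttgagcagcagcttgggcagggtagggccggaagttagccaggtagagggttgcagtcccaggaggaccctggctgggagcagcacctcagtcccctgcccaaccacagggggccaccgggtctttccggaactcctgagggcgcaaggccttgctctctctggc
Lbr promoter 1: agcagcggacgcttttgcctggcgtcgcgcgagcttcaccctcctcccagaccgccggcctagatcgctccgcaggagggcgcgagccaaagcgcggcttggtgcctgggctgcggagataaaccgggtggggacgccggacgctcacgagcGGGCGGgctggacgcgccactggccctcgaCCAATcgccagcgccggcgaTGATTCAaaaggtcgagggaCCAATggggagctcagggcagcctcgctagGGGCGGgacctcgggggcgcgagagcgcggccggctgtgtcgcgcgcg
Sun2 promoter 1: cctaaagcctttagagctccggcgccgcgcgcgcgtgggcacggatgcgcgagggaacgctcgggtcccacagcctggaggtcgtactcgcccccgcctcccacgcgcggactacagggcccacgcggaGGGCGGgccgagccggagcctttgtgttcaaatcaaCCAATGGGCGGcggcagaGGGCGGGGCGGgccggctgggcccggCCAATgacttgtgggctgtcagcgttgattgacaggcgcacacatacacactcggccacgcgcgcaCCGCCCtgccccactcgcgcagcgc

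The Lbr and Sun2 promoters were rich in CpG, with 42 and 39 CpG dinucleotides in 300 bases and a GC content of 72.0% and 71.3%. Only 2.61% and 3.91% of the 32851 promoters in the table had more CpG dinucleotides. Both also held 2 CCAAT matches, together with 2 GGGCGG matches in Lbr and 5 in Sun2, of which 2 in Sun2 overlapped by 1 base. Both Lmna entries were poor in CpG by comparison, with 1 and 7, where the median of all promoters was 7. The promoter table may not list every start of Lmna, so this holds for the 2 entries and not for the gene. Lmna promoter 1 held 1 GGGCGG match and a TGANTCA match at bases 290 to 296, counted from 1 at the 5′ end, and Lmna promoter 2 held 1 CCAAT match. The Lbr promoter held a TGANTCA match at bases 203 to 209. Over all promoters, 37.4% held CCAAT on either strand, while 35.7% held the GC box and 7.81% the AP-1 site. Neither TATAAA (13.6% of all promoters) nor the CArG box of serum response factor (1.63%) was matched in the 4 entries. The motifs were chosen after the sequences were seen, and a match of letters is not evidence of a bound factor.

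The promoters and the peaks are on different builds, and no position was carried from one to the other, so which region holds which start site was not determined. The 2 Lmna entries lie 10040 bp apart on GRCm38.p6. Gene lengths in RefSeq were 28.8 kb for Lmna, 45.6 kb for Lmnb1, 27.1 kb for Lbr and 18.5 kb for Sun2, all shorter than their windows of 70, 100, 80 and 70 kb. The nearest coding neighbours there are Sema4a and Mex3a for Lmna, Tex43 and Marchf3 for Lmnb1, Dnah14 and Enah for Lbr, and Gtpbp1 and Dnal4 for Sun2. A region in a window can therefore belong to sequence outside the named gene. Below, regions are numbered along each window in the order of their mm9 position.

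Depth was read from the steps of the deposited p-values, which gave the whole number of overlapping read intervals at each summit and the mean of the background it was tested against. That mean was 1.10 and 1.37 intervals per bp in G2 replicates 1 and 2, against 1.05 and 1.41 in G128 replicates 1 and 2. Summit heights are given as multiples of it, called times the background. The weakest listed peaks stood at 18.2 to 19.0 times the background. A region without a peak in a library did not meet the calling criteria, which are not given here, and was not shown to be closed. The 26 member regions with a peak in all 4 libraries are called shared. Over all 27768 shared regions of the genome, the median summit was 67.3 and 68.7 times the background in the G2 libraries and 50.3 and 58.1 times in the G128 libraries.

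The Lmna window was packed with open regions. It held 26 and 23 peaks in G2 replicates 1 and 2, and 23 and 25 peaks in G128 replicates 1 and 2. Peaks covered 22.1% and 25.9% of the window in the G2 libraries and 17.3% and 22.0% in the G128 libraries, where whole lists covered 0.602 to 0.863% of the span between the first and last peaks of all chromosomes. When the genome was cut into tiles of 70 kb, 12 of the 14606 tiles with any region (0.0822%) held at least 20 regions, the number in this window, and the median tile held 2. The Sun2 window, also 70 kb long, held 10 and 8 peaks in the G2 libraries and 9 and 9 in the G128 libraries. Its 9 regions were matched or exceeded by 708 of the same tiles (4.85%). The Lmnb1 window held 4 and 3 peaks on G2 and 4 and 4 on G128, and the Lbr window 2 and 2 on G2 and 2 and 3 on G128. At least as many regions as in the Lmnb1 window were found in 41.2% of the 11701 tiles of 100 kb with any region. For the Lbr window this was 69.7% of the 13476 tiles of 80 kb with any region. Tiles without a region were left out of all these shares, so they are not shares of the whole genome.

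Over all windows the number of peaks overlapped between the groups, while the covered length did not. There were 42 and 36 peaks in the G2 libraries and 38 and 41 in the G128 libraries, with means of 39.0 ± 4.24 for G2 and 39.5 ± 2.12 for G128 (SD, 2 libraries each, two-sided exact permutation p = 1). The ratio of G2 to G128 was 0.987, and it was 1.06 without G2 replicate 2 and 1.03 without G128 replicate 2. For whole lists the ratio was 1.20. With the same number of peaks taken from each list, the ratio in the windows was 0.827 (two-sided exact permutation p = 0.3333). Peaks covered 23541 and 27075 bp in the G2 libraries, against 18692 and 22745 bp in the G128 libraries. Both G2 values lay above both G128 values, and the means were 25308 ± 2499 bp for G2 and 20718.5 ± 2866 bp for G128 (SD, 2 libraries each). The ratio was 1.22, against 1.24 for whole lists, and the same permutation test, exact and two-sided, returned p = 0.3333, the lowest value possible with 2 libraries a group, far from the 0.05 threshold.

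Peak widths overlapped between the groups. The median peak width in the windows was 414 and 569.5 bp in the G2 libraries and 345 and 437 bp in the G128 libraries. Several neighbouring peaks of one library formed a single peak in another. Region Lmna-12, at 88298260 to 88300137, held 2 peaks in G2 replicate 1 and 1 peak in G2 replicate 2, against 3 and 4 peaks in G128 replicates 1 and 2. Region Sun2-4, at 79571549 to 79573343, held 2 and 1 peaks on G2 and 2 and 3 peaks on G128.

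The window of the A-type lamin gene held the highest summits. The highest region of all members was Lmna-16 at 88313279 to 88314864, 1586 bp long. It stood at 464 and 449 times the background in G2 replicates 1 and 2, and at 304 and 383 times in G128 replicates 1 and 2. Both G2 libraries were above both G128 libraries, and only 1.32% of all shared regions had a higher mean. Region Lmna-15, at 88305654 to 88308543 and 2890 bp the widest member, reached 373 and 362 times on G2 and 270 and 363 times on G128. There the groups overlapped, since G128 replicate 2 lay level with the G2 libraries. Region Lmna-11, at 88296288 to 88297764, reached 362 and 391 times on G2 and 287 and 322 times on G128, without overlap. Regions Lmna-15 and Lmna-11 were exceeded by 2.43% and 2.46% of shared regions.

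The places of these 3 summits barely moved between libraries. The summit lay within 57 bp over the 4 libraries in Lmna-16 and Lmna-15 and within 19 bp in Lmna-11. From Lmna-11 to Lmna-15 the summits were 10199 and 10249 bp apart on G2 and 10239 and 10261 bp apart on G128. From Lmna-15 to Lmna-16 they were 6829 and 6727 bp apart on G2 and 6768 and 6715 bp apart on G128. Over the 26 shared member regions, summits lay within 100 bp in 22, with a median spread of 39.5 bp. The exceptions were Lmna-12, Lmna-17, Lmna-9 and Lbr-2, with spreads of 820, 783, 114 and 207 bp. The same share over all shared regions of the genome is not given here, so small spreads are not shown to be particular to the members. Narrow regions also leave little room for a spread, as in Sun2-5 with a width of 216 bp.

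The other 12 shared Lmna regions were of middling height. Their mean summits were 35.5 to 112 times the background, and 8 of them lay above the median of all shared regions. Region Lmna-10, at 88293891 to 88295670, had the highest ratio of group means among the Lmna regions, 1.47. It reached 117 and 115 times on G2 and 67.3 and 90.7 times on G128, so that the groups did not overlap. Region Lmna-9 next to it, at 88292042 to 88293181, reached 119 and 120 times on G2 and 89.2 and 118 times on G128, with the higher G128 library just below both G2 libraries. Region Lmna-4 reached 116 and 107 times on G2 and 86.3 and 115 times on G128, with overlap.

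On the side of higher coordinates, 4 more shared regions of the Lmna window lay beyond Lmna-16. Region Lmna-17 reached 94.6 and 114 times the background on G2 and 74.9 and 97.1 times on G128, with overlap. Region Lmna-18 reached 116 and 111 times on G2 and 81.6 and 82.2 times on G128, without overlap. Region Lmna-19 was low, at 37.3 and 36.5 times on G2 and 31.3 and 36.8 times on G128, and the groups overlapped. Region Lmna-20, at 88325661 to 88326301, reached 90.1 and 84.8 times on G2 and 61.7 and 67.3 times on G128, without overlap.

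The window of the B-type lamin gene Lmnb1 had a pair of neighbouring regions that were the highest within it, and little else. Region Lmnb1-1, at 56866774 to 56867691, reached 120 and 134 times the background on G2 and 118 and 93.5 times on G128. Region Lmnb1-2, at 56867962 to 56869077, reached 133 and 151 times on G2 and 73.0 and 118 times on G128. In both, the G2 libraries lay above the G128 libraries, and 25.8% and 25.3% of shared regions were higher. The G128 libraries traded places between the neighbours, with replicate 1 the higher in Lmnb1-1 and replicate 2 the higher in Lmnb1-2. Region Lmnb1-4, at 56896957 to 56897429, reached 67.3 and 52.6 times on G2 and 53.1 and 53.1 times on G128, so that the G128 values lay within the range of the G2 values.

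The lamin B receptor gene had the simplest window, with 1 high and 1 low region. Region Lbr-1, at 183771676 to 183772943, reached 236 and 263 times the background on G2, against 198 and 156 times on G128. Both G2 libraries were higher, and 9.72% of shared regions exceeded its mean. G128 replicate 2 was the lowest here, and it split the region into 2 peaks. Region Lbr-2, at 183790752 to 183791187, reached 53.7 and 49.0 times on G2 and 29.4 and 43.9 times on G128, again without overlap.

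The window of Sun2, the gene of the LINC complex, had 1 leading region and a set of lower ones. Region Sun2-4 reached 165 and 178 times the background on G2 and 133 and 136 times on G128, without overlap. Region Sun2-6, at 79583505 to 79583928, reached 97.3 and 87.7 times on G2 and 56.91 and 66.6 times on G128, also without overlap, and its ratio of group means, 1.498, was the highest of the members. Region Sun2-9, at 79597712 to 79598440, reached 63.7 and 75.3 times on G2 and 47.4 and 57.4 times on G128, without overlap. The remaining shared regions of this window overlapped between the groups. Region Sun2-5, at 79578530 to 79578745, reached 28.2 and 38.0 times on G2 and 31.3 and 34.7 times on G128, region Sun2-7 reached 53.7 and 64.3 times on G2 and 43.6 and 70.8 times on G128, and region Sun2-8 reached 28.2 and 32.9 times on G2 and 25.6 and 32.6 times on G128.

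As a group, the members stood higher over the background on G2, about as much as the genome as a whole. Both G2 libraries were above both G128 libraries in 16 of the 26 shared members (61.5%), where 67.6% of all shared regions showed this. The reverse was found in 0 members and in 2.79% of all shared regions. The mean of the log2 summits was higher on G2 in 25 members, the exception being Sun2-5, and in 90% of all shared regions. The median difference of the members, G2 minus G128, was 0.32 on the log2 scale, beside 0.34 over all shared regions. Since a shift of this kind touches nearly every region, summits were then compared after median scaling, in which the median log2 summit of the shared regions was set to 0 in every library. Differences below are relative to that shift.

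After this scaling no member region passed the test between G2 and G128. With limma fitted over all 27768 shared regions and Benjamini-Hochberg adjustment, 0 of the 26 members were higher and 0 lower at an adjusted p of 0.05, where 0.601% of all shared regions were higher and 0.864% lower on G2. An unadjusted p under 0.05 was found for 0 members, beside 15% of all shared regions. The scaled mean was higher on G2 in 12 of the 26 members, beside 52.2% of all shared regions. The median difference of the members was -0.01 on the log2 scale (range -0.34 to 0.28), beside 0.01 over all shared regions. Both G2 libraries were above both G128 libraries in 3 members, Lmna-10, Lmna-20 and Sun2-6 (23.8% of all shared regions), and below them in 6 members (21.9% of all). Without the scaling, limma called 5 members higher and 0 lower on G2, namely Lmnb1-2, Lbr-1, Lmna-10, Sun2-6 and Lmna-16, where 26.6% of all shared regions were called higher and 0.22% lower.

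Each SE and 95% interval of a difference here and below uses a variance that limma moderated with a trend over all shared regions. It is therefore not the spread of that region's 4 libraries alone. The scaled log2 summits of Lmnb1-2 had SDs of 0.11 on G2 and 0.34 on G128, and those of Lbr-1 0.09 and 0.39. In Sun2-6 the SDs were 0.13 and 0.01. Among the scaled differences, the largest positive one was in Lmnb1-2. It was 0.28 ± 0.14 on the log2 scale (SE, 95% interval -0.01 to 0.56), with an adjusted p of 0.349 by limma. Without G128 replicate 2 it was 0.52 with an adjusted p of 0.0266 by limma, and without G128 replicate 1 it was 0.039 with an adjusted p of 0.935. Leaving out a library made 1 other call among the members. That was Lbr-1, with 0.17 ± 0.13 in all libraries (95% interval -0.08 to 0.42, limma adjusted p = 0.545) and 0.45 without G128 replicate 1 (limma adjusted p = 0.0199), but -0.11 without G128 replicate 2 (limma adjusted p = 0.690). Both calls therefore need the omission of 1 G128 library. Lmna-10 and Sun2-6 followed with 0.24 ± 0.14 and 0.25 ± 0.15, and limma adjusted p-values of 0.427 and 0.449. With 1 library left out they ran from 0.13 to 0.35 in Lmna-10 and from 0.16 to 0.34 in Sun2-6, and with the deposited signal summed over a region's peaks in place of the summit they were 0.055 and 0.045. The most negative difference was in Sun2-5, at -0.34 ± 0.21 (95% interval -0.76 to 0.08, limma adjusted p = 0.449). It was -0.14 without G2 replicate 1, -0.54 without G2 replicate 2 and -0.01 without median scaling.

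For the 3 highest Lmna regions the intervals of the scaled summit differences were the narrowest of the members. Lmna-16 differed by 0.09 (95% interval -0.10 to 0.28, limma adjusted p = 0.704), Lmna-11 by -0.02 (-0.22 to 0.17, limma adjusted p = 0.935) and Lmna-15 by -0.10 (-0.30 to 0.10, limma adjusted p = 0.675). For Sun2-4 the difference was 0.02 (-0.23 to 0.26, limma adjusted p = 0.959). Over the 26 members the intervals reached from 0.19 to 0.42 to either side of the estimate. When the deposited signal replaced the summit, the 3 Lmna regions had negative values, at -0.33 in Lmna-16, -0.37 in Lmna-11 and -0.35 in Lmna-15, with limma adjusted p-values of 0.148, 0.149 and 0.155. With that measure Lbr-1 was at -0.20 (limma adjusted p = 0.479). A missed threshold does not show that these regions are alike on G2 and G128.

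**Figure D1:**
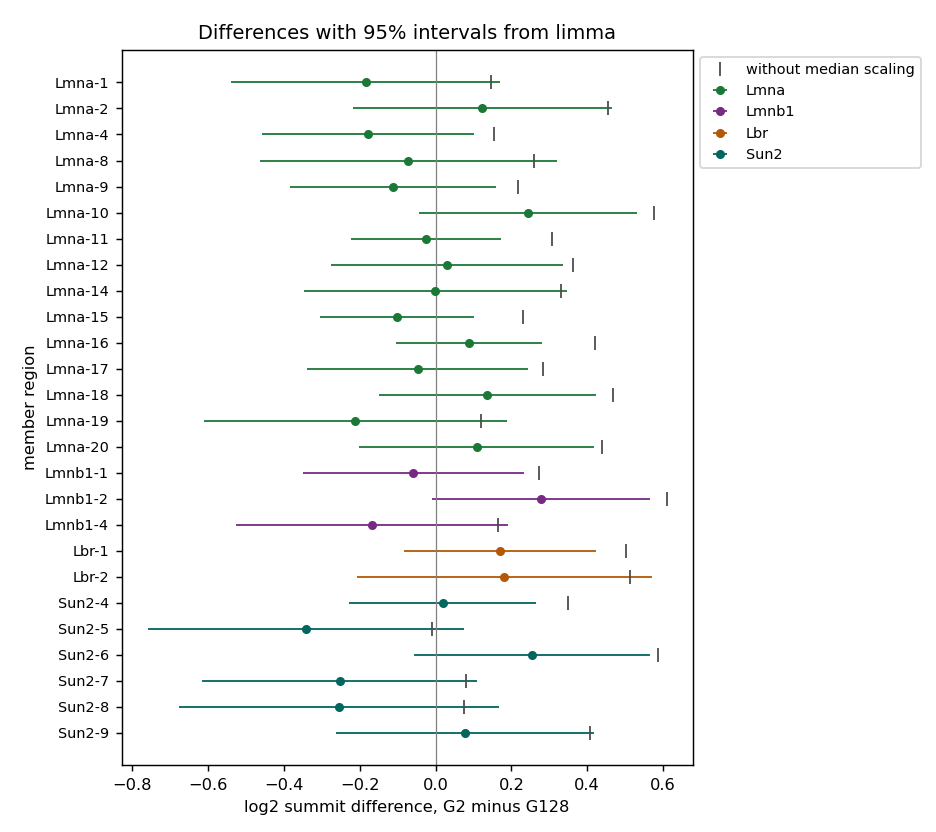
Log2 summit difference, G2 minus G128, of each shared member region after median scaling, with 95% intervals from limma's moderated variances (points and lines, coloured by gene). Grey ticks give the same difference without median scaling. All intervals include 0, and the ticks lie above 0 except in Sun2-5.

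The remaining 9 member regions lacked a peak in at least 1 library, and all were weak. Their summits were 20.01 to 33.2 times the background where they were listed. Regions called G2-only, listed in the pair of G2 libraries but absent from the G128 lists, numbered 3 of 35 (8.57%), where 8.32% of all regions had this pattern. G128-only regions numbered 0, where 0.37% of all regions had that pattern. A peak in all libraries was found for 26 of 35 members (74.3%), beside 60.5% of all regions. The other 6 members followed no group, namely Lmna-6, Lmna-7, Lmna-13, Lmnb1-3, Sun2-1 and Sun2-2. Lmna-6 and Lmna-7 were missing only from G128 replicate 1, the shortest list, and Lmna-13 was found only in G2 replicate 1.

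The G2-only regions rested on small numbers of intervals. Lmna-3, at 88280421 to 88280672, had summits of 31 and 34 intervals in G2 replicates 1 and 2 (exact Poisson 95% intervals 21.1 to 44.0 and 23.5 to 47.5). Lmna-5, at 88282480 to 88282598, had 25 and 35 intervals, and Sun2-3, at 79553616 to 79554142, had 22 and 39. Over the background, 4 of these 6 Poisson intervals extended below 18.4, the weakest summit listed in a G128 library. Overlapping read intervals need not be independent molecules, so these ranges cover counting error only. With the same number of peaks taken from each list, and likewise with a p at least 10 times below the weakest of the list, 0 member regions were G2-only. Without G128 replicate 2, 5 were G2-only, and without G2 replicate 1, 1 was G128-only. Lmnb1-3 was missing only from G2 replicate 2, with 32 intervals in G2 replicate 1 and 35 and 35 in the G128 libraries. That is 29.1 times the background on G2, against 33.2 and 24.8 times on G128.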

How the data were processed

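Per the submitters' processing notes, the tools were Bowtie2 2.2.5, SAMtools 1.7, Genrich 0.5 and deepTools, and the build was mm9. Their roles and settings, and the treatment of duplicates, mitochondrial reads and the transposase shift, are not given in the sources used here. Peaks had been called per library. The lists deposited by the authors give, for each peak, a position, a score, a signal, −log10 p and q values and a summit offset.

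The deposited −log10 p-values were turned back into whole-number summit pileups and a background mean by a log-normal fit to the lowest 100 distinct values of each library, and all lay within 0.00179 of a whole number. Peaks sharing at least 1 bp were merged. Coordinates count from 1. Median-scaled log2 summits were fitted with limma 3.58.1 (variances moderated with a trend, no replicate block) in R 4.3.3, and called at an adjusted p of 0.05. Scripts used Python 3.11.15, numpy 2.4.6, scipy 1.17.1 and pandas 2.3.3. Both steps were also run on simulated data. The simulated p-values came from the fitted log-normal itself, and the simulated summits were drawn independently for each library. These runs check the code and cannot show that either model holds for these libraries.

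The members, lists and tests were chosen with earlier results of these data known. Regions given by library are the 3 highest shared ones per window, those of a single group and the one with the largest difference per window, and further regions were added after their values were seen. Cell identity was not checked against marker genes, and other lamina genes were not analysed here, since no mm9 annotation was used. The 4 RNA libraries were not analysed here.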

Additional observations from a re-analysis of the deposited data

How the results depend on the processing

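The ratio of peaks in the windows, G2 over G128, was 1.04 with windows widened by 10 kb and ran from 0.911 to 1.06 when 1 library was left out. It was 0.827 with the same number of peaks and 0.932 with a p 10 times below the weakest. G128-only members numbered 2 with 50% reciprocal overlap and 0 to 1 with 1 library left out. G2-only members numbered 0 with a p 10 times below the weakest, 0 with the same number of peaks, and 3 to 5 with 1 library left out. Members called higher by limma numbered 5 without median scaling and 0 to 1 with 1 library left out, and the median difference was 0.32 without median scaling. Without median scaling, differences turned positive in Lmna-11 (0.31), Lmna-15 (0.23), Lmnb1-1 (0.27) and Lmnb1-4 (0.16). They also turned positive in Lmna-1, Lmna-4, Lmna-8, Lmna-9, Lmna-14, Lmna-17, Lmna-19, Sun2-7 and Sun2-8. With the deposited signal, Lbr-1 was at -0.20 and Lmna-16 at -0.33, and without a change of sign Lmna-11 was at -0.37, Lmna-15 at -0.35, Lmnb1-1 at -0.23, Sun2-5 at -0.55, Lbr-2 at 0.37, Sun2-4 at 0.091, Lmna-10 at 0.055, Sun2-6 at 0.045 and Sun2-9 at 0.044. Sun2-4 was at -0.058 with quantile normalization and -0.049 with cyclic loess. With 1 library left out, differences ran from -0.11 to 0.45 in Lbr-1, -0.0043 to 0.37 in Lbr-2, -0.065 to 0.017 in Lmna-11, -0.21 to 0.0065 in Lmna-15, -0.33 to 0.21 in Lmnb1-1, -0.36 to 0.025 in Lmnb1-4, 0.039 to 0.52 in Lmnb1-2, 0.13 to 0.35 in Lmna-10, 0.028 to 0.15 in Lmna-16, 0.16 to 0.34 in Sun2-6, -0.54 to -0.14 in Sun2-5, -0.068 to 0.11 in Sun2-4 and -0.029 to 0.18 in Sun2-9. The cause of these changes was not tested. With the replicate block, 0 members were called higher and 0 lower and the median difference was -0.01, while over all shared regions limma called 230 higher and 382 lower. In median-scaled summits, same-numbered libraries did not deviate together (r = 0.0028 across 27768 regions, which are not independent). That check cannot see a shift of a whole library. The background means were 1.10 and 1.05 in replicate 1 of G2 and G128, and 1.37 and 1.41 in replicate 2. Covered length in the windows was also higher in replicate 2 of both groups. The main fit did not pair the libraries, and whether the numbers mark pairs remains unknown. Over all shared regions, limma called 43 higher and 77 lower with quantile normalization, 85 and 159 with cyclic loess, 67 and 98 with the deposited signal, and 16 to 438 higher and 47 to 434 lower with 1 library left out. With 2 libraries a group, leaving 1 out assumes that the lone library varies like the other group.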
